A study of Arabidopsis thaliana with 60 samples.

Results

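A set of 10 jasmonate genes was followed, out of 32678 genes in the count tables. They were chosen by name for their place in the jasmonate response, with earlier results of these data known and by no threshold on a value: the transcription factors MYC2, MYC3 and MYC4, the transcription factors JAM1, JAM2 and JAM3, and the output genes VSP1, VSP2, TAT3 and CORI3. The libraries were made from Arabidopsis leaves of 4 lines, which were taken at 5 times (0, 2, 4, 6 and 8 h) after syringe infiltration with dexamethasone at 1 µM, with 3 libraries in each of the 20 groups and 60 libraries in all. The wild-type background was Col-0, where the control line carried DEXp:mYFP (a yellow fluorescent protein alone, called mYFP here) and the test line carried DEXp:MLACC-mYFP (called MLACC here), which joins the same fluorescent protein to a coiled-coil region taken from MLA, an intracellular resistance protein of barley. The second background, called ppsdes, was Col-0 carrying dde2-2, ein2-1 and sid2-2 together with pen2-1, pad4-1 and sag101-2, either without a transgene (ppsdes) or with DEXp:MLACC-mYFP (MLACC ppsdes). Every library received dexamethasone, the 0 h libraries included. The ppsdes control therefore carried neither the dexamethasone-inducible construct nor mYFP, each combination of transgene and background was a single line, the MLACC lines of the 2 backgrounds came from separate transformations, and the study describes less MLACC protein in the mutant line than in the wild-type line. Plants were 4 weeks old, and each library came from 6 leaf discs of 6 plants. The labels do not say whether the 3 libraries of a group came from separate plantings, so the p-values measure the spread between these libraries.

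Jasmonoyl-isoleucine, the active jasmonate, joins the receptor COI1 to JAZ repressor proteins, and the JAZ proteins are then degraded. This frees MYC2, MYC3 and MYC4, which are basic helix-loop-helix (bHLH) activators that bind G-box and related E-box DNA and switch on wound and defence genes. JAM1, JAM2 and JAM3 are bHLH repressors of the same wider family: they occupy MYC target sites without activating them and so restrain the response. Among the outputs, VSP1 and VSP2 encode vegetative storage proteins, long used as markers of the MYC branch in leaves. TAT3 encodes a tyrosine aminotransferase-family protein and is a common wound and jasmonate marker, and CORI3 encodes a cystine lyase named for its induction by coronatine, a bacterial mimic of jasmonoyl-isoleucine. Of the alleles in ppsdes, dde2-2 disrupts allene oxide synthase and thereby jasmonate synthesis, ein2-1 blocks ethylene signalling, and sid2-2 removes the isochorismate synthase used for salicylic acid.

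Libraries held 18.2 to 25.8 M counted reads (M, 1000000) in the wild-type table (median 21.9) and 14.1 to 26 M in the ppsdes table (median 22.9). By correlation with the other libraries, 54 lay nearest to their own time point. The remaining 6 lay nearest to a neighbouring time: mYFP 2 h replicate 3, MLACC 4 h replicate 1, MLACC 8 h replicate 3, ppsdes 6 h replicate 1, ppsdes 8 h replicate 2 and MLACC ppsdes 6 h replicate 1. Calls that change without them are given with the result. The mutant background was visible in its own genes, since SID2 reached at most 1.13 counts per 1000000 counted reads (CPM) in ppsdes libraries against 11 to 2160 in the wild type, and AOS, the gene hit by dde2-2, spanned 3.63 to 43.5 CPM against 93.6 to 1150. Leaf identity was clear from 5 mesophyll markers, but their summed level moved with MLACC: at 8 h it was 5550 to 15700 CPM in MLACC against 34400 to 39000 in mYFP, with 5 of 5 called lower, and at 4 h 18800 to 28000 against 42600 to 45900. In ppsdes the sums at 8 h were 28700 to 39700 CPM with MLACC and 40400 to 49100 without, and 0 of 5 were called lower (1 of 5 at 6 h). Epidermis and trichome markers (5 tested of 6 listed) fell likewise at 8 h in the wild type, from 513 to 554 CPM down to 28.6 to 193, with 5 called lower, and 2 were called lower in ppsdes at 8 h (241 to 316 CPM with MLACC against 381 to 460). Guard cell markers (4 listed) moved most in ppsdes, with 21.1 to 39.6 CPM against 77.1 to 84.7 at 6 h, where 3 were called lower, and 29.2 to 43.6 against 82.2 to 92.4 at 8 h, where 2 were; in the wild type at 8 h 1 was higher and 1 lower (64.2 to 76.3 against 58.9 to 65.6). Of 5 vasculature markers 1 was called lower in the wild type at 8 h and 0 in ppsdes. Over all tested genes 22.6% were called lower and 23.1% higher in the wild type at 8 h. In ppsdes 4.13% were called lower at 6 h and 3.44% at 8 h. The trichome factor GL1 was at or near 0 throughout (at most 0.0409 CPM). The part of these shifts in the values below was not tested. In leaf tissue, fewer cells of a type and less RNA per cell cannot be told apart.

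The question was how the factors and their outputs behaved after MLACC induction, and how far this held in ppsdes. Levels are CPM scaled by library composition, and differences are log2 fold changes with their standard error from edgeR's quasi-likelihood test. A gene is called when its adjusted p (false discovery rate, FDR) over all genes of the fit is under 0.01 and its change exceeds 1 on the log2 scale. Before induction took effect, at 0 h, 0 of 10 members were called between MLACC and mYFP, where 0.00509% of all genes were, and 0 of the 8 members tested were called between MLACC ppsdes and ppsdes, where 0.0104% were. DESeq2 also called 0 in both. At an unadjusted p under 0.05, 1 member stood out in the wild type, CORI3 at 0.81 ± 0.35, and none did in ppsdes. Between the controls of both backgrounds at 0 h, 0 of 10 were called by either tool (0.351% of all genes), and JAM2 was the member with an unadjusted p under 0.05 (-0.64 ± 0.29, FDR 0.345).

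In the wild type MYC2, JAM1 and JAM2 were called higher in MLACC than in mYFP at all 4 times after 0 h, MYC3 and JAM3 were called higher at 4 h, and MYC4 was called lower at 4 and 8 h. At 2 h MLACC raised 4 of 10 members, MYC2, JAM1, JAM2 and TAT3, where 4.14% of 19654 tested genes were called higher and 4.26% were called in either direction. At 4 h 7 of 10 were called, 6 higher and 1 lower, against a background of 39% of genes (21.4% higher and 17.6% lower). At 6 h 5 of 10 were called, all higher, where 29.3% of genes were called (18.8% higher), and at 8 h 7 of 10, 6 higher and 1 lower, where 45.8% were (23.1% higher and 22.6% lower). The median log2 fold change over the 10 members was 1.69, 2.35, 1.46 and 1.75 at 2, 4, 6 and 8 h, while that over all tested genes was 0.01, 0.02, -0.02 and 0.02. Groups that did not overlap were common. Every MLACC library lay above every mYFP library for 16.6, 35.7, 35.8 and 39.8% of 19929 genes at these times. Every MLACC library lay below for 17.7, 35.5, 35.6 and 38.2%. At 0 h these shares were 4.61 and 5.12%. The counts at 2 h depend on the other times sharing their spread: when the 2 h libraries were fitted alone the 4 calls were lost (FDR 0.0185 to 0.0367, with fold changes of 1.88 to 5.47), as they were when the 0 h difference was subtracted (FDR 0.0161 to 0.121).

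MYC2 (AT1G32640, chromosome 1, 11798119 to 11801407, minus strand of TAIR10.1 in the RefSeq annotation) is the best known of the activators. At 2 h the 3 MLACC libraries held 172, 184 and 133 CPM and the mYFP libraries 46.3, 53.3 and 27.9. At 4 h they held 125, 161 and 131 against 42.5, 27.8 and 20.7. The groups were far apart at both times, and at 6 h (78.9 to 112 against 18.4 to 25) and 8 h (113, 95.2 and 86.7 against 28.9, 23.1 and 32.6) they still did not overlap. The log2 fold changes were 1.98 ± 0.36 at 2 h (FDR 0.000755), 2.25 ± 0.37 at 4 h (1.84e-05), 2.14 ± 0.37 at 6 h (4.35e-05) and 1.81 ± 0.36 at 8 h (0.00012), so MYC2 was called at all 4 times. Without mYFP 2 h replicate 3, the lowest control at 2 h, the value was 1.71 and the call was lost (FDR 0.0119). With the 0 h difference subtracted the 8 h value was 1.58 (FDR 0.0111). Another gene, AT1G32630, runs on the opposite strand and shares 3241 exonic bases with MYC2, 98.5% of its exons. The library kit keeps no strand, so reads of the pair cannot be told apart. The counts given to AT1G32630 were low (group means of 53 to 99 against 213 to 3373 for MYC2). How shared reads were counted, or whether they were left out, was not given, so these low counts do not settle the MYC2 level.

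MYC3 (AT5G46760, chromosome 5, 18974022 to 18976590, plus strand), the second activator, was called at 4 h. Its 2 h groups overlapped (48.1, 35.3 and 34.6 CPM in MLACC, 32.7, 36.1 and 29.5 in mYFP), with a difference of 0.31 ± 0.17 (FDR 0.299). At 4 h MLACC reached 55.1, 82.7 and 102 CPM against 37.7, 36.8 and 32.5, with every MLACC library above every control, a difference of 1.22 ± 0.17 (FDR 3.33e-06). Without MLACC 4 h replicate 3, the highest library, it was 1.00 and no longer passed the fold limit. At 6 and 8 h the groups stayed apart and the FDR stayed low, but the change was under the fold limit, at 0.75 ± 0.17 (FDR 0.000793) and 0.89 ± 0.17 (FDR 7.6e-05).

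MYC4 (AT4G17880, chromosome 4, 9933326 to 9935685, minus strand), the third activator, was lower in MLACC than in mYFP. The dexamethasone-treated mYFP leaves held 22.4, 23.5 and 22.9 CPM at 2 h and 34.2, 29.9 and 19.5 at 4 h, up from 6.52, 12.6 and 9.56 at 0 h. The MLACC leaves held 12.9, 16.8 and 8.04 at 0 h, 13, 19.5 and 15.1 at 2 h and 13.4, 3.38 and 3.93 at 4 h. At 2 and 6 h MLACC thus lay near its own 0 h range while mYFP lay above its own. Every MLACC library lay below every mYFP library from 2 h onwards, also at 6 h (9.02 to 12.4 against 18.2 to 25) and 8 h (10.3, 3.33 and 7.09 against 19.1, 21.3 and 18.8). The same held for 17.7, 35.5, 35.6 and 38.2% of 19929 genes at 2, 4, 6 and 8 h. The difference was -0.48 ± 0.39 at 2 h (FDR 0.519), -1.96 ± 0.41 at 4 h (FDR 0.000236), -0.97 ± 0.39 at 6 h (FDR 0.0354) and -1.50 ± 0.40 at 8 h (FDR 0.00192), with calls at 4 and 8 h. The 8 h call was lost without MLACC 8 h replicate 2 (-1.18, FDR 0.0166), and both were lost when each time was fitted alone (FDR 0.0333 and 0.0127). The low point at 4 h lay in 2 of 3 libraries, since MLACC 4 h replicate 1, the library nearest to 6 h, held 13.4 CPM.

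**Figure D1:**
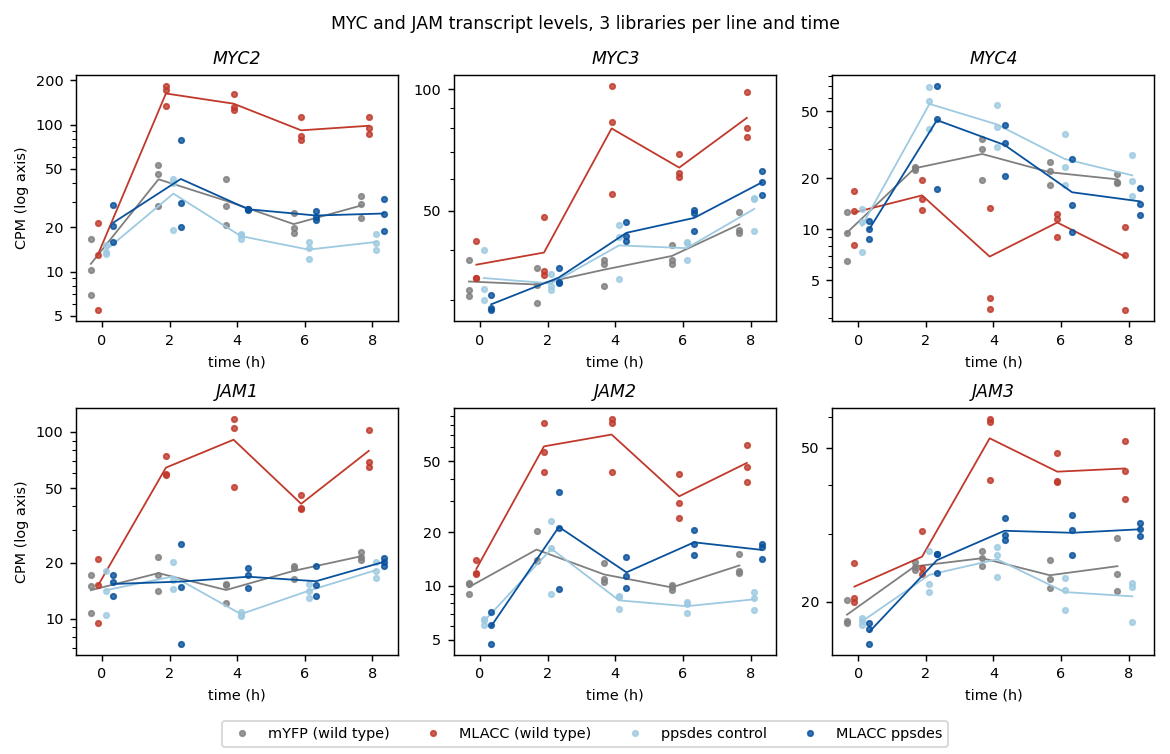
MYC and JAM factor levels (CPM, log axis, 1 panel per gene) against hours after dexamethasone infiltration in the 4 lines, with a point for each library and a line through the group means. MYC2, JAM1 and JAM2 of the wild-type MLACC line stand above the other 3 lines from 2 h, while MYC4 of that line stays at 3.33 to 19.5 CPM from 2 h and below its control.

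The repressors JAM1 and JAM2 are shown with their upstream G-boxes because the factors of both classes bind this element. Searched on both strands in the 1000 bases before the annotated start, CACGTG occurred in JAM1 (1 site, 309 bases upstream) and JAM2 (2 sites, 666 and 677 bases upstream) and in none of the other 8 members, while 14.8% of 27443 gene promoters of that length held it. The 26-base windows around the sites are printed with the G-box in capitals, from the RefSeq TAIR10.1 genome, 5′ to 3′ along the strand of the gene; the JAM2 windows overlap each other.
JAM1, chr2:19093667-19093692, minus strand: ggtacatacaCACGTGtgtacacaaa
JAM2, chr1:108259-108284, plus strand: ctcctaaatcCACGTGaacttcacgt
JAM2, chr1:108270-108295, plus strand: acgtgaacttCACGTGcttttcacgc
A match describes these letters and not a bound site.

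JAM1 (AT2G46510, chromosome 2, 19090953 to 19093373, minus strand) was higher in MLACC from 2 h. Its MLACC libraries held 74.8, 59.2 and 59.3 CPM at 2 h against 17.1, 21.5 and 14.1 in mYFP, and 50.6, 117 and 105 at 4 h against 15.4, 12.2 and 15.2. At 8 h they held 69.4, 103 and 65.2 against 20.7, 21.5 and 22.7. None of these groups overlapped, nor did those at 6 h (38.6 to 46.1 against 16.4 to 19.2), which was the smallest of the differences. JAM1 was called at all 4 times, with log2 fold changes of 1.92 ± 0.28 (FDR 9.85e-05), 2.72 ± 0.29 (FDR 8.29e-08), 1.21 ± 0.28 (FDR 0.000758) and 1.89 ± 0.28 (FDR 3.38e-06) in order of time. Subtracting the 0 h difference ended the 6 h call (1.12, FDR 0.03).

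JAM2 (AT1G01260, chromosome 1, 108946 to 111699, plus strand) was likewise higher in MLACC from 2 h. The MLACC libraries held 82.1, 56.1 and 43.7 CPM at 2 h against 14, 20.2 and 13.8, and 43.7, 82.1 and 86.1 at 4 h against 10.9, 10.5 and 13.4. They held 29.3, 42.2 and 24 at 6 h against 9.82, 9.52 and 10.1, and 38.3, 62 and 46.6 at 8 h against 15.1, 11.8 and 12.2. MLACC was above mYFP in all libraries at every time, and a small gap was already there at 0 h (11.7 to 13.9 against 8.97 to 10.4, a difference of 0.34 ± 0.26 that was not called). The log2 fold changes were 1.96 ± 0.26 (FDR 3.47e-05), 2.65 ± 0.27 (FDR 4.48e-08), 1.72 ± 0.26 (FDR 1.05e-05) and 1.93 ± 0.26 (FDR 1.15e-06), each past the threshold.

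JAM3 (AT4G16430, chromosome 4, 9267260 to 9269178, plus strand), the third repressor, was called at 4 h. At 2 h its groups overlapped (23.6 to 30.4 CPM against 24.2 to 25.3). At 4 h MLACC held 41.2, 58.3 and 59.3 CPM against 27, 26 and 24.8, a difference of 1.08 ± 0.15 (FDR 3.26e-06), with every MLACC library the higher. That call ended on the fold limit without MLACC 4 h replicate 2 (1.00) or replicate 3 (0.99) and with the 0 h difference subtracted (0.84). At 6 and 8 h the differences of 0.91 ± 0.15 (FDR 3.46e-05) and 0.85 ± 0.15 (FDR 3.54e-05) stayed under the fold limit, with groups that did not overlap. The minus-strand gene AT4G16440 shares 85 exonic bases with JAM3, 4.64% of its exons.

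A jump in the MLACC effect between 2 and 4 h was not called for any member (0 of 10, by edgeR and by DESeq2), although 9.18% of all genes were; 4 members had an unadjusted p under 0.05. Single libraries decided this count. Without MLACC 4 h replicate 1 it was 3, namely MYC3 (1.12), MYC4 (-2.39) and JAM3 (1.11), and without MLACC 2 h replicate 1 it was 2, MYC3 (1.06) and JAM3 (1.06). Without the libraries nearest to another time it was 4, with JAM1 (1.19) added to MYC3 (1.14), MYC4 (-2.43) and JAM3 (1.06). From 4 to 8 h the effect was called for 0 of 10 members by either tool, with 3 at an unadjusted p under 0.05 and 3.16% of all genes called.

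The make-up of the factors followed from these courses. On a scale per length (CPM per kilobase of exon), MYC3 was the most abundant of the 10 members in mYFP at 0 h, at 13, ahead of JAM3 at 10.1, JAM1 at 5.88, MYC4 at 4.05, JAM2 at 3.58 and MYC2 at 3.44. MYC2 made up 11.6 to 25.2% of the summed MYC2, MYC3 and MYC4 level in those libraries. In MLACC it made up 67.1 to 71.8% at 2 h, 49.1 to 59.3% at 4 h and 42.2 to 49.1% at 8 h, while the mYFP libraries gave 28.6 to 40.3%, 23.1 to 30.7% and 19.8 to 28.1%, with no overlap at any of these times. By 8 h MYC3 (33.1 CPM per kilobase), JAM1 (32.7) and MYC2 (29.8) lay side by side in MLACC, and MYC4 was the lowest member at 2.93. The MYC2 levels, shares and ratios on this scale depend on how reads of its exons shared with AT1G32630 were counted.

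At 4 and 8 h the sum of the repressors was higher relative to that of the activators in MLACC than in mYFP. In MLACC at 4 h the mean JAM1 to JAM3 sum was 92.1 CPM per kilobase against 24.3 in mYFP, and the mean MYC2 to MYC4 sum was 76.3 against 34.9. The ratio of repressors to activators ran from 0.91 to 1.33 in the MLACC libraries at 4 h and from 0.596 to 0.907 in mYFP, a narrow separation. At 8 h it was 1.01 to 1.3 against 0.72 to 0.882, again without overlap. At 2 h (0.74 to 1.01 against 0.715 to 0.818) and 6 h (0.771 to 1.08 against 0.703 to 0.875) the groups overlapped, and at 0 h they did as well (0.916 to 1.06 against 0.943 to 0.974). In ppsdes the ratio at 8 h was 0.814 to 0.886 with MLACC and 0.533 to 0.746 without, and the share of MYC2 was 17.3 to 23.8% against 14.3 to 14.8%. That share was already apart at 0 h, at 24.6 to 33.9% against 16.5 to 21.3%. The ratio overlapped at 0 h (0.661 to 0.904 against 0.64 to 1.05). These ratios are descriptions of the same counts and were not tested on their own.

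**Figure D2:**
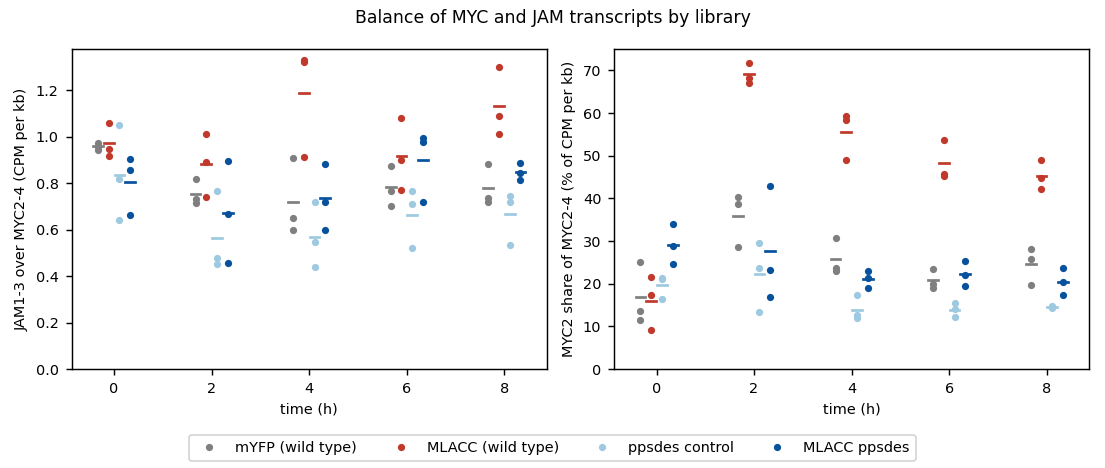
Share of MYC2 in the summed MYC2, MYC3 and MYC4 level (percent) and ratio of the summed JAM to the summed MYC level, both from CPM per kilobase, against hours after infiltration, with a point for each library of the 4 lines and a dash at each group mean. The MYC2 share of the wild-type MLACC line is 67.1 to 71.8% at 2 h and stands above its control through 8 h.

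Among the outputs, TAT3 (AT2G24850, chromosome 2, 10582074 to 10585216, minus strand) changed by far more than any other member. It was near 0 before induction (0, 0.409 and 0.0484 CPM in MLACC, 0.0598, 0.618 and 0 in mYFP). At 2 h MLACC held 93.4, 43.8 and 23.5 CPM against 2.23, 1.27 and 0.0461, and at 4 h 852, 3170 and 4250 against 8.26, 21.5 and 4.7. At 6 h the values were 2820, 4620 and 2840 against 3.77, 1.61 and 0.379, and at 8 h 3980, 8390 and 6220 against 4.28, 1.39 and 1.54. The groups never overlapped after 0 h, and within MLACC at 4 h replicate 1 was again the lowest library. The log2 fold changes were 5.50 ± 0.99 (FDR 0.000638), 7.97 ± 1.07 (FDR 1.63e-06), 10.81 ± 1.20 (FDR 1.83e-07) and 11.34 ± 1.22 (FDR 5.79e-08). Per kilobase, TAT3 ranked 19086 of 31904 genes in mYFP at 0 h and moved in MLACC to rank 4247 at 2 h, 42 at 4 h, 33 at 6 h and 7 at 8 h, where its level was 2580 CPM per kilobase.

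CORI3 (AT4G23600, chromosome 4, 12310379 to 12313212, plus strand) was higher at later times in both controls, and higher again in wild-type MLACC at 8 h. The mYFP libraries held 7.35, 6.18 and 7.46 CPM at 0 h and 153, 154 and 98 at 8 h, and CORI3 was called higher than at 0 h at each of the 4 later times in mYFP (2.35, 4.15, 4.17 and 4.33 on the log2 scale). At 2 and 4 h MLACC and mYFP overlapped (25.6 to 42.4 CPM against 31.8 to 39.2, and 134 to 221 against 94.7 to 153). At 6 h they no longer did (205 to 280 against 110 to 142; 0.99 ± 0.34, FDR 0.0142), and at 8 h MLACC held 342, 269 and 692 CPM, a difference of 1.69 ± 0.34 that was called (FDR 0.000138). Replicate 3, the library nearest to 6 h, was the highest of the 3. The 8 h call was lost with the 0 h difference subtracted (0.88, FDR 0.12) and with the 8 h libraries fitted alone (1.65, FDR 0.0147).

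The 250 bases before the starts of TAT3 and CORI3 are printed because TAT3 was called in wild-type MLACC at all 4 times and CORI3 chiefly in the time courses of the controls. Capitals mark CACATG (or CATGTG on the other strand), an E-box that MYC factors are known to accept, and TTGAC (or GTCAA), the core of the W-box bound by WRKY factors; the motifs overlap nowhere. Both stretches are from RefSeq TAIR10.1, 5′ to 3′ towards the start of the gene.
TAT3, chr2:10585217-10585466, minus strand: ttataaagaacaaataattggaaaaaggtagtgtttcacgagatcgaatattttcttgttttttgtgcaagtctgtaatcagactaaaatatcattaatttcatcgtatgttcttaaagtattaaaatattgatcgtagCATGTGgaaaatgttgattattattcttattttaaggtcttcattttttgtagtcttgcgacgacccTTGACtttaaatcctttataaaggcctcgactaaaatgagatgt
CORI3, chr4:12310129-12310378, plus strand: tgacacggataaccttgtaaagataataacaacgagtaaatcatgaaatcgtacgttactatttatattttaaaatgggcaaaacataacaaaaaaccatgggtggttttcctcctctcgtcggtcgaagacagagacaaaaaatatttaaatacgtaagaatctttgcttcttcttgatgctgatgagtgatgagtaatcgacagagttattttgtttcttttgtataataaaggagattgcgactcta
TAT3 had CACATG once, 111 bases upstream, and TTGAC once, 44 bases upstream, and CORI3 had neither in this window. Over 27443 promoters of 250 bases, 11.1% held CACATG, 44.9% held TTGAC and 6.49% held CACGTG, so the first element is the less common of the pair found. In 1000 bases MYC2 also held 1 CACATG (370 bases upstream) and JAM1 held 4, where 37.7% of promoters held at least 1. CORI3 held 4 TTGAC in that length, where 88.1% of promoters held at least 1. Within 250 bases TTGAC was also present in MYC2, MYC4, JAM2, VSP1 and VSP2, and absent from MYC3, JAM1 and JAM3. In the wild type JAM1, without the motif, was called at all 4 times, as were MYC2, JAM2 and TAT3, which held it. VSP2 held it and was called at none. A link between the motif and the calls was not tested.

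VSP1 (AT5G24780, chromosome 5, 8507590 to 8509201, minus strand) and VSP2 (AT5G24770, chromosome 5, 8500468 to 8502224, minus strand) are neighbouring genes. Their spliced sequences were 89.8% identical over 1298 aligned bases, but no more than 5 of 1289 windows of 50 bases in VSP1 were found whole in VSP2. Few stretches of that length are thus shared exactly, and reads that align with mismatches were not checked. Both genes were low and uneven. VSP1 held 2.22, 14.9 and 4.59 CPM in MLACC at 4 h against 1.19, 1.24 and 0.0855, 10.3, 3.67 and 0.724 at 6 h against 0.423, 0.348 and 0, and 2.95, 3 and 38.7 at 8 h against 1.09, 0.763 and 0.564. From 4 h every MLACC library was above every control, with spreads of over 10-fold within the MLACC group at 6 and 8 h. The log2 fold changes were 3.16 ± 1.13 at 4 h (FDR 0.0163), 4.21 ± 1.29 at 6 h (FDR 0.00748) and 4.17 ± 1.15 at 8 h (FDR 0.00256), of which the last pair were called.

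Those VSP1 calls rested on single libraries. At 8 h the value was 1.84 (FDR 0.12) without MLACC 8 h replicate 3, and the FDR was 0.0124 and 0.0138 without mYFP 8 h replicate 2 or 3. At 6 h the call was lost without any of mYFP replicates 1 to 3 (FDR 0.0191, 0.023 and 0.0351), without MLACC replicate 1 (3.05, FDR 0.0544) or replicate 2 (4.37, FDR 0.0132) and with the 0 h difference subtracted (FDR 0.299). At 4 h, in contrast, VSP1 passed without MLACC 4 h replicate 1 (3.60, FDR 0.00815) and without the libraries nearest to another time (3.51, FDR 0.00314), while at 8 h it was lost without these (1.83, FDR 0.106). VSP2 was called at no time. Its MLACC libraries held 3.83, 8.66 and 1.83 CPM at 4 h against 1.1, 1.38 and 0.214, which did not overlap, and 3.27, 1.88 and 10.3 at 8 h against 2.69, 2.56 and 0.667, which did, and the differences were 2.46 ± 0.93 (FDR 0.023) and 1.36 ± 0.87 (FDR 0.157). In each of these 4 groups the same library was highest for both genes, MLACC 8 h replicate 3 among them.

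**Figure D3:**
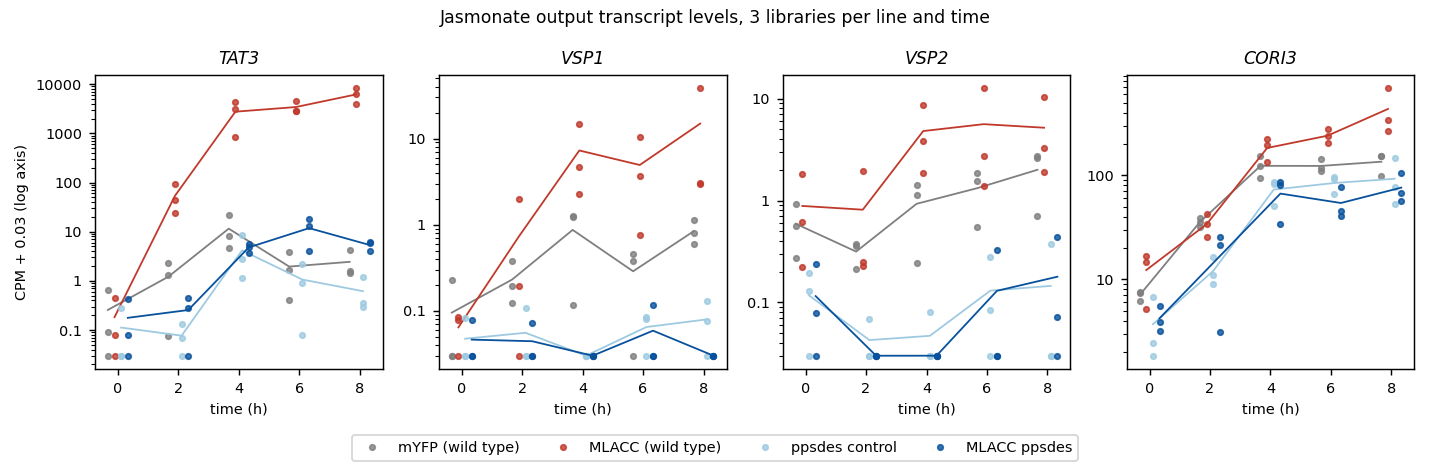
Output gene levels (CPM plus a small offset, log axis, 1 panel per gene) against hours after dexamethasone infiltration in the 4 lines, with a point for each library and a line through the group means. TAT3 of the wild-type MLACC line reaches 3980 to 8390 CPM at 8 h, CORI3 climbs in all 4 lines, and VSP1 and VSP2 lie near the bottom of the axis in both ppsdes lines.

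In ppsdes few members were called, but few of all genes were at 2 and 4 h, and at 8 h the shares were alike. At 2 h 0 of the 8 members tested were called between MLACC ppsdes and ppsdes, by edgeR and by DESeq2, and 0 had an unadjusted p under 0.05, where 0.396% of 19216 tested genes were called (0.38% higher and 0.0156% lower). At 4 h 0 of 8 were called by either tool, where 2.22% of genes were (2.08% higher and 0.141% lower), and JAM1 (0.68 ± 0.27) and JAM3 (0.26 ± 0.11) were the 2 with an unadjusted p under 0.05. At 6 h JAM2 and TAT3 were called, 2 of 8, where 14.6% of genes were called (10.5% higher and 4.13% lower). At 8 h TAT3 alone was called, 1 of 8, where 12.4% were called (9% higher and 3.44% lower). The member medians were 0.23, 0.25, 0.40 and 0.37 at 2, 4, 6 and 8 h, against 0.01, -0.02, -0.02 and -0.07 over all genes. Every MLACC ppsdes library lay above every ppsdes library for 4.35, 14.8, 25.6 and 27.9% of 19929 genes at these times. Every MLACC ppsdes library lay below for 2.69, 11.5, 24.6 and 26.3%. At 0 h these shares were 3.99 and 3.97%. VSP1 and VSP2 did not pass the filter on low counts in ppsdes.

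MYC2 was called at no time in ppsdes, although its groups overlapped at 2 h alone of the later times. MLACC ppsdes held 29.1, 78.8 and 20.2 CPM at 2 h against 19.1, 42.9 and 39.9 in ppsdes, an overlap in which 1 library stood high, and 26.4, 26.7 and 26.6 at 4 h against 17.7, 16.6 and 18, which did not overlap. Nor did the groups at 6 h (22.6 to 26 against 12.2 to 15.8) and 8 h (18.8 to 31.1 against 14 to 18.1). The differences were 0.34 ± 0.34 at 2 h (FDR 1), 0.62 ± 0.34 at 4 h (FDR 0.292), 0.78 ± 0.34 at 6 h (FDR 0.0685) and 0.61 ± 0.34 at 8 h (FDR 0.161). At 0 h MLACC ppsdes already lay above ppsdes, with 15.8 to 28.2 CPM against 13.2 to 15.1 and a difference of 0.64 ± 0.34 that is as large as those at 4 and 8 h.

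JAM2 was the factor called in ppsdes. At 6 h MLACC ppsdes held 15, 20.6 and 17.1 CPM against 7.02, 7.91 and 8.16, and at 8 h 17.1, 16.6 and 14.1 against 8.61, 7.35 and 9.29. Neither pair of groups overlapped. The difference was 1.21 ± 0.31 at 6 h (FDR 0.0037), which was called, and 0.89 ± 0.31 at 8 h (FDR 0.0277), which was not. The 6 h call was lost without any of ppsdes 6 h replicates 1 to 3 or without MLACC ppsdes 6 h replicate 2, without the libraries nearest to another time (1.26, FDR 0.0179) and with the 0 h difference subtracted (1.27, FDR 0.0416), while the fold itself kept between 1.08 and 1.31 over 13 alternatives. JAM3 passed the FDR limit at 6 h (0.53 ± 0.11, FDR 0.000712) and 8 h (0.55 ± 0.11, FDR 0.000706) under the fold limit, with 29.6 to 32 CPM at 8 h against 17.7 to 22.4. JAM1 was not called, although its groups did not overlap at 4 h (14.7 to 18.6 CPM against 10.4 to 10.9), with differences of -0.08 ± 0.27, 0.68 ± 0.27, 0.19 ± 0.27 and 0.12 ± 0.27 in order of time.

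TAT3 was called higher in ppsdes at 6 and 8 h, at a low level. MLACC ppsdes held 3.65, 5.69 and 4.9 CPM at 4 h against 2.8, 8.48 and 1.11, which overlapped. It held 4.03, 18.2 and 13.1 at 6 h against 0.0494, 2.17 and 0.871, and 5.91, 6.07 and 4.02 at 8 h against 0.26, 1.17 and 0.329, with no overlap at either time. The differences were 3.52 ± 0.85 at 6 h (FDR 0.00207) and 3.18 ± 0.89 at 8 h (FDR 0.00713), both called. Each rested on few libraries: the 6 h call was lost without ppsdes 6 h replicate 1 or 3 or MLACC ppsdes 6 h replicate 2 (FDR 0.0116 to 0.0137), and the 8 h call without MLACC ppsdes 8 h replicate 1 or 2 or ppsdes 8 h replicate 1 or 3 (FDR 0.02 to 0.0409). Both were lost with the 0 h difference subtracted (2.74, FDR 0.386, and 2.40, FDR 0.467), and the 6 h call with only the libraries compared (FDR 0.024). Its rank at 8 h was 14048 of 31904, at 2.22 CPM per kilobase.

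The remaining members gave no call in ppsdes. MYC4 was high at 2 h in both lines, with 57, 69.2 and 39 CPM in ppsdes and 70.5, 44.7 and 17.3 in MLACC ppsdes, and its differences ran from -0.64 ± 0.41 to -0.32 ± 0.40 over the 4 times. CORI3 climbed from 1.81, 2.41 and 6.78 CPM at 0 h to 148, 52.4 and 77.4 at 8 h in ppsdes, and MLACC ppsdes at 8 h lay in the same range (104, 67.1 and 57.1; -0.32 ± 0.53). VSP1 and VSP2 were hardly counted at all: in MLACC ppsdes VSP1 had 0 reads over the 3 libraries at 4 h and at 8 h, where wild-type MLACC had 413 and 983. Set against a floor of 3 counts over the group, VSP1 was at least 166-fold higher in wild-type MLACC at 4 h and at least 325-fold higher at 8 h, and VSP2 at least 19-fold higher at 2 h (53 reads against 0) and at least 111-fold higher at 4 h (276 against 0). These floors cover counting error alone, and at 6 and 8 h VSP2 kept 7 and 11 reads in MLACC ppsdes against 453 and 352. Single libraries weighed heavily. MLACC 8 h replicate 3 gave 840 of the 983 VSP1 reads, and MLACC 2 h replicate 2 gave 45 of the 53 VSP2 reads. The controls of the 2 backgrounds differed as well. VSP1 had 56 reads in mYFP against 0 in ppsdes at 4 h and 52 against 3 at 8 h. VSP2 had 21 against 1 at 2 h and 60 against 1 at 4 h.

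The difference between the backgrounds was tested as an interaction, the MLACC effect in ppsdes less that in the wild type, over all 60 libraries. For a gene that MLACC raised, a negative value means a smaller rise in ppsdes. For a gene that it lowered, a smaller fall in ppsdes gives a positive value. At 2 h 1 of 10 members was called, JAM1 at -1.96 ± 0.38 (FDR 0.00486), where 0.206% of genes were (0.0702% lower). At 4 h 5 of 10 were called, where 20.7% of genes were (10.6% lower): MYC2 (-1.59 ± 0.50, FDR 0.00981), MYC3 (-1.06 ± 0.20, FDR 9.99e-05), JAM1 (-2.01 ± 0.39, FDR 0.000111), JAM2 (-2.09 ± 0.41, FDR 0.000128) and TAT3 (-7.69 ± 1.19, FDR 5.95e-06). At 6 h TAT3 was called, 1 of 10 where 4.13% of genes were and 2.61% were lower (-7.30 ± 1.27, FDR 7.74e-05), and at 8 h JAM1 (-1.73 ± 0.38, FDR 0.000457) and TAT3 (-8.11 ± 1.40, FDR 2e-05), 2 of 10 where 19.9% were (8.61% lower). All 9 calls were of a smaller effect in ppsdes. The 10 include VSP1 and VSP2, which did not pass the low-count filter in ppsdes alone. Their standard errors at 4 h were 10403 and 4.5, so these genes could hardly be called there. A positive sign was found for MYC4 at all 4 times and for CORI3 (0.54 ± 0.66) and JAM3 (0.04 ± 0.19) at 2 h. MYC4 was lower with MLACC in both backgrounds, so its positive values mean a smaller fall in ppsdes. The largest positive value was MYC4 at 1.60 ± 0.59 at 4 h (FDR 0.0251), which was not called but passed without MLACC 4 h replicate 1 (2.60, FDR 0.000389) and without all libraries nearest to another time (FDR 0.000247). CORI3 at 8 h stood at -1.97 ± 0.66 (FDR 0.0139), and passed without ppsdes 8 h replicate 2 (-2.25, FDR 0.00785) and in DESeq2 (-2.03, FDR 0.00649).

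Some of these interactions were fragile. JAM1 at 2 h was kept in 9 of 19 alternatives and MYC2 at 4 h in 5 of 19, although their values stayed between -2.47 and -1.62 and between -1.97 and -1.37. Without the libraries nearest to another time both were lost (-1.82, FDR 0.0171, and -1.58, FDR 0.0133). MYC3 at 4 h was kept in 13 of 19; it no longer passed the fold limit without mYFP 4 h replicate 3, MLACC 4 h replicate 2 (-0.97) or 3 (-0.77) or ppsdes 4 h replicate 2 (-0.97). TAT3 at 6 h was lost without ppsdes 6 h replicate 2 (-6.09, FDR 0.0122). MLACC ppsdes 2 h replicate 2, with 78.8 CPM of MYC2 and 33.7 of JAM2, held back the 2 h count: without it MYC2 (-2.40, FDR 0.00208) and JAM2 (FDR 0.0022) passed as well. With the 0 h differences subtracted none of the 9 was called (FDR 0.0125 to 0.43). The wild-type and ppsdes libraries come from separate count tables with different control constructs and different amounts of MLACC protein, and the genetic background cannot be told apart from these.

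**Figure D4:**
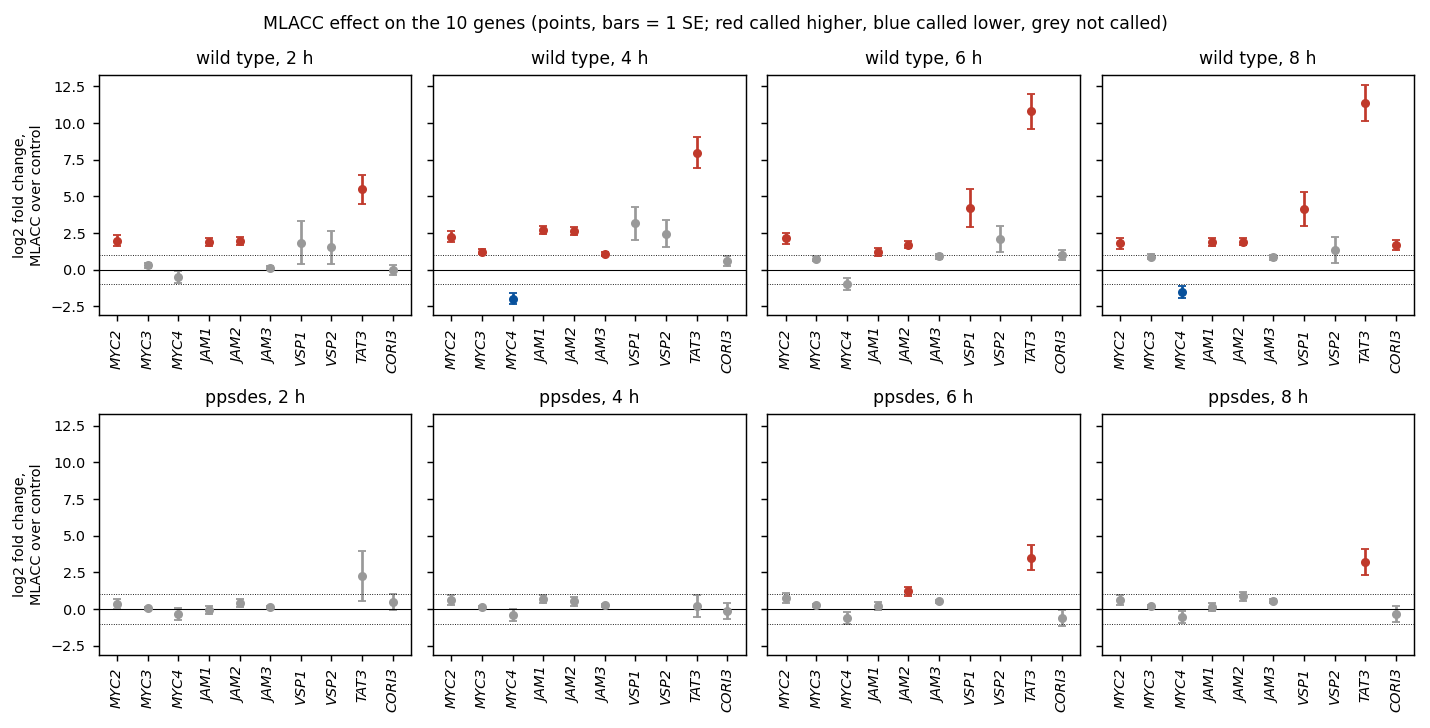
Log2 fold change of MLACC against its own control at 2, 4, 6 and 8 h for each member, in the wild type and in ppsdes, with bars of 1 standard error, dotted lines at the fold limit and colour for called values. TAT3 lies between 5.50 and 11.34 in the wild type and between 0.24 and 3.52 in ppsdes, and MYC4 lies below 0 in both.

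The control lines also changed between times. In the mYFP line, 2 of 10 were called higher than at 0 h at 2 h, where 10.6% of genes were called and 6.86% were higher, 4 at 4 h (13.1%, with 7.67% higher and 5.45% lower), 1 at 6 h (19.9%, with 10.3% higher) and 2 at 8 h (21.9%, with 11.7% higher). MYC2 was 1.92 ± 0.37 above its 0 h level at 2 h (FDR 0.000383), 1.43 ± 0.36 at 4 h and 1.38 ± 0.36 at 8 h. MYC4 was 1.55 ± 0.40 above at 4 h and TAT3 5.57 ± 1.13, a passing peak at 8.26, 21.5 and 4.7 CPM. The 2 h call of MYC2 and all those of CORI3 and TAT3 held without any 1 library, whereas the 4 h call of MYC4 was lost without mYFP 0 h replicate 1 or 3 or mYFP 4 h replicate 1 or 2 (FDR 0.0122 to 0.0272). MYC2 was lost at 4 h without mYFP 0 h replicate 2 or 3 or mYFP 4 h replicate 1, and at 8 h without mYFP 0 h replicate 2 or 3 or mYFP 8 h replicate 1 or 3 (FDR 0.0107 to 0.0314). TAT3 at 8 h passed without mYFP 0 h replicate 2 (6.24, FDR 0.00941). Without the libraries nearest to another time MYC4 was called at 2 h (1.26, FDR 0.00745), 6 h (1.18, FDR 0.00424) and 8 h (1.05, FDR 0.00941) as well. At 6 and 8 h the shares of members called were no larger than those over all genes.

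In the ppsdes control, of 8 members, 3 were called higher than at 0 h at 2 h, where 12% of genes were called and 7.59% were higher, 3 at 4 h (13.9%, with 8.21% higher), 1 at 6 h (18.9%, with 9.49% higher) and 1 at 8 h (20.8%, with 10.3% higher). At 2 h these were MYC2 (1.30 ± 0.34), MYC4 (2.42 ± 0.43) and JAM2 (1.38 ± 0.32), and at 4 h MYC4 (2.01 ± 0.42), TAT3 (5.50 ± 1.18) and CORI3 (4.35 ± 0.63). CORI3 was the member called at 6 h (4.53 ± 0.63) and 8 h (4.68 ± 0.64). MYC2 at 2 h was lost without any of ppsdes 0 h replicates 1 to 3 or ppsdes 2 h replicate 2 or 3 (FDR 0.0141 to 0.0292), and JAM2 without ppsdes 2 h replicate 3 (1.04, FDR 0.0186). Without ppsdes 0 h replicate 3 CORI3 was also called at 2 h (2.53, FDR 0.00731), and at 6 h MYC4 was without ppsdes 6 h replicate 2 (1.52, FDR 0.00962) and TAT3 without replicate 1 (4.05, FDR 0.00895), or without the libraries nearest to another time (FDR 0.00519). The time courses of the controls were not tested against each other, since the ppsdes control lacks the construct.

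The rest of the jasmonate pathway was followed through lists of named genes. Of 14 synthesis genes (13 tested in the wild type), MLACC raised 8, 11, 11 and 11 at 2, 4, 6 and 8 h and lowered 0, 1, 0 and 1, where 4.14, 21.4, 18.8 and 23.1% of all tested genes were called higher, with medians of 2.12, 3.55, 2.83 and 2.70 where the median of all genes was within 0.02 of 0. AOC3, an allene oxide cyclase, was 7.38 ± 0.64 higher at 4 h (FDR 8.96e-09) and 9.09 ± 0.72 at 8 h. OPR3, the reductase that follows it, was 5.11 ± 0.46 and 3.90 ± 0.44 higher, and ACX1, an acyl-CoA oxidase of the final β-oxidation steps, 3.55 ± 0.33 and 3.51 ± 0.33. In ppsdes 0, 1, 4 and 4 of 13 were called higher at these times, where 0.38, 2.08, 10.5 and 9% of all tested genes were. There AOC3 still rose by 3.89 ± 0.87 at 4 h (FDR 0.00677) and 6.75 ± 1.25 at 8 h (FDR 0.000291), and OPR3 by 1.14 ± 0.26 at 8 h (FDR 0.00186), while ACX1 stood at 0.22 and 0.11.

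Of 17 genes of perception and repression (16 tested), 4, 10, 9 and 11 were higher in the wild type, where 4.14, 21.4, 18.8 and 23.1% of all genes were, and 0 lower, with medians of 0.82, 1.92, 2.09 and 1.81. JAZ5 and JAZ10 encode JAZ repressors that are themselves jasmonate-induced. JAZ5 rose by 6.42 ± 0.61 at 4 h and by 6.43 at 8 h in the wild type, and in ppsdes stood at 0.38 and at 1.68 (FDR 0.039), neither called. JAZ10 rose in both backgrounds at 4 and 8 h, by 4.24 ± 0.38 and 6.19 ± 0.43 in the wild type and by 3.39 ± 0.39 (FDR 7.2e-06) and 3.63 ± 0.41 in ppsdes; its interaction was -0.82 ± 0.52 at 4 h (FDR 0.2) and -2.51 ± 0.56 at 8 h, the latter called. TPL, a co-repressor, rose by 1.80 ± 0.16 at 8 h in the wild type (FDR 4.93e-09) and gave 0.61 in ppsdes (FDR 0.00015), under the fold limit. In ppsdes 1, 2, 2 and 3 of the 14 tested were higher, where 0.38, 2.08, 10.5 and 9% of all genes were, and 0, 0, 1 and 1 lower.

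Turnover genes were called from 4 h in the wild type, and other outputs from 2 h. Of 10 turnover genes (9 tested) 0 were called at 2 h and 8 at each later time, with medians of -0.06, 4.61, 4.88 and 5.95, and of 12 other outputs (10 tested) 2, 8, 7 and 8 were higher, with medians of 1.62, 4.66, 4.78 and 6.07, while 4.14, 21.4, 18.8 and 23.1% of all genes were called higher. IAR3 and ILL6, amidohydrolases that cleave jasmonoyl-isoleucine, were 5.13 ± 0.48 and 4.61 ± 0.53 higher at 4 h. In ppsdes ILL6 gave -0.95 at 4 h and -1.41 at 8 h (FDR 0.0233), neither called, and IAR3 gave 0.16 and 0.83 ± 0.13 (FDR 4.2e-05), under the fold limit. ERF1, the ethylene and jasmonate response factor, was 7.33 ± 0.69 higher at 4 h, NAC019, a NAC factor downstream of MYC2, 7.36 ± 0.78, and TPS04, a terpene synthase, 10.43 ± 1.20, and none of these 3 passed the low-count filter in ppsdes. In ppsdes 0, 1, 1 and 1 of 5 tested turnover genes and 0, 0, 0 and 1 of 5 tested outputs were called higher, beside 0.38, 2.08, 10.5 and 9% of all genes. The 2 bHLH relatives of the members were lower in MLACC at 4 and 8 h, but had been so at 0 h as well, at low counts (MYC5 -2.79 ± 2.19 and bHLH14 -1.38 ± 1.64, both with FDR 1), and at 2 h MYC5 stood at 0.99 ± 1.18. MYC5 was at -1.71 at 4 h (FDR 0.035) and -1.80 at 8 h (FDR 0.0394), not called, and bHLH14 fell by 2.18 at 8 h (SE 0.68, FDR 0.00653), with a called interaction of 3.07 ± 0.89 at that time (FDR 0.00524).

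**Figure D5:**
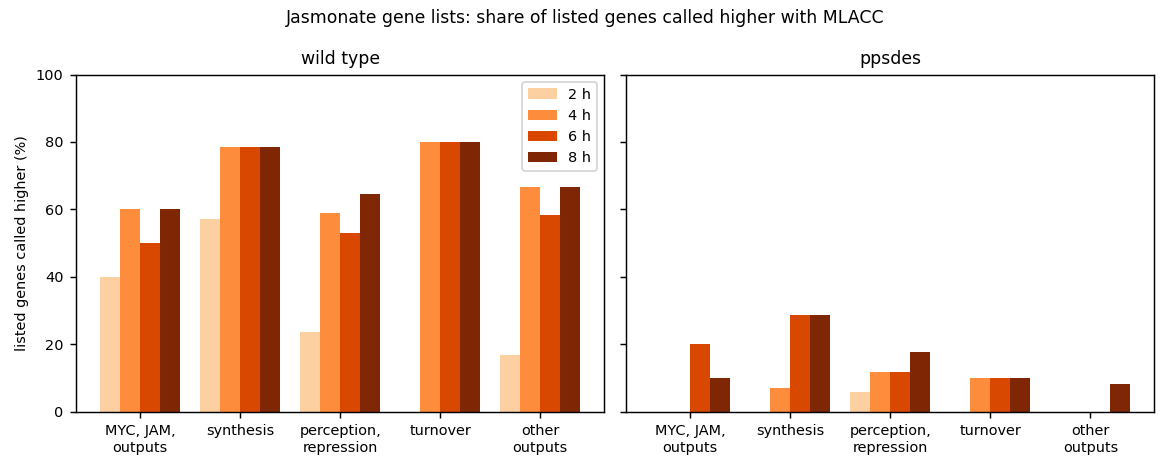
Share of listed genes called higher with MLACC (percent, bars from 0; genes not tested count as not called) at 2, 4, 6 and 8 h for the members and 4 jasmonate lists, in the wild type and in ppsdes. Turnover bars are absent at 2 h in the wild type and stand for 8 of 10 genes from 4 h, while in ppsdes the tallest bars are those of synthesis, 4 of 14 genes at 6 and 8 h.

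Over the 20 group means, on a log2 scale, MYC2, JAM1 and JAM2 ran together. Pearson's r was 0.93 between MYC2 and JAM2, 0.89 between MYC2 and JAM1 and 0.90 between JAM1 and JAM2, but 0.54 between MYC2 and MYC3 and -0.25 between MYC2 and MYC4. Among the others, r was 0.92 for VSP1 and VSP2, 0.93 for VSP1 and TAT3 and 0.91 for JAM3 and TAT3, and -0.06 for MYC4 and CORI3. The points share libraries and depth, and these values describe the 20 groups. VSP1 and VSP2 stayed near 0 in every ppsdes group. Their r values, also those with the genes named below, rest largely on the wild-type groups and the gap between backgrounds.

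The genes most like each member by the same measure differed from member to member. For MYC2 they were OPCL1 (0.961), a ligase of jasmonate synthesis, DL1B (0.955) and AT1G26730 (0.953), and for JAM2 PP2A (0.986), PUB24 (0.970), a U-box ubiquitin ligase, and AtIPCS2 (0.968). JAM1 was nearest to AT2G14290 (0.967), AT3G43250 (0.966) and PEPR2 (0.962), a receptor for the wound peptides called Peps. For MYC3 they were ACO3 (0.964), AT5G13030 (0.963) and AIR12 (0.953), for MYC4 UGT72B3 (0.948), KAN2 (0.947) and RLP57 (0.929), and for JAM3 FUT12 (0.981), AT2G04620 (0.980) and MSBP1 (0.979). Of the outputs, TAT3 had ENGase85B (0.981), MYB2 (0.980) and PNC2 (0.980), VSP1 had AT5G10625 (0.983), AT4G17470 (0.975) and NAC019 (0.973), VSP2 had SID2 (0.952), AT4G29700 (0.949) and AT1G52000 (0.940), and CORI3 had AT3G04970 (0.971), UBP22 (0.969) and AT1G62310 (0.967). SID2 carries a mutation in the ppsdes lines, so its likeness to VSP2 includes that difference between backgrounds. By Spearman's rho MYC4 kept 2 of its 3 genes, and the other 9 members kept 1 or 0.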

How the data were processed

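Poly(A) RNA libraries (TruSeq v2, which does not keep strand) were counted per gene by the authors, who deposited whole-number counts in a wild-type and a ppsdes table. Their notes name FastQC 0.11.2, TopHat2 2.0.10, HTSeq (version not given) and TAIR10; the annotation and strand setting used for counting were not given in the sources used here. Coordinates, gene lengths and sequences are from the RefSeq annotation of TAIR10.1. The 5 summary lines of the tables were left out of library sizes and tests; of all entries of a library, those in no feature made up 1.24 to 2.26% and those without a unique place 6.46 to 14.2%.

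Counts were tested in R 4.3.3 with edgeR 4.0.16 (quasi-likelihood, TMM scaling, filterByExpr by group), separately for each table (19654 and 19216 genes) and jointly for the interaction (19929 genes), with Benjamini-Hochberg adjustment over all genes, an FDR limit of 0.01 and a log2 fold limit of 1. A standard error is the log2 fold change divided by the square root of F. Levels are CPM with the TMM sizes of all 60 libraries; likeness was Pearson's r of log2(CPM + 0.5) over 20 group means. The test was run on simulated data with known changes and the same spread for every gene. That setting is simpler than these data, so it does not cover genes as uneven as TAT3 and VSP1. Duplicated libraries were not found.

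Alternatives were DESeq2 1.42.0, its size factors in edgeR, no count filter, only the libraries compared, a replicate block, the 0 h difference subtracted and each library left out; leaving out the libraries nearest to another time was added after seeing the data. The replicate numbers are bare labels. Deviations of same-numbered libraries correlated in all 3 pairs above 0.1 between the wild-type lines at 0 h, the ppsdes lines at 6 and 8 h and the ppsdes control at 4 and 0 h, and in the other comparisons not. Members and lists were chosen with earlier results of these data known. Besides the members, the text names the 2 genes of each list with the smallest FDR at 4 h and at 8 h, and the 3 genes most like each member.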

Additional observations from a re-analysis of the deposited data

Results flagged for a closer look

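The MLACC effect on 5 members differed between the backgrounds by the interaction test, each time with the smaller effect in ppsdes. At 2 h this was JAM1 (-1.96). At 4 h the values were -1.59 for MYC2, -1.06 for MYC3, -2.01 for JAM1, -2.09 for JAM2 and -7.69 for TAT3. TAT3 differed again at 6 h (-7.30) and 8 h (-8.11), and JAM1 at 8 h (-1.73). Over all genes 0.206, 20.7, 4.13 and 19.9% were called at 2, 4, 6 and 8 h, so the 2 of 10 members at 8 h lay at that share. None of these interaction calls was kept when the 0 h differences were subtracted. JAM1 at 2 h was kept in 9 of 19 alternatives and MYC2 at 4 h in 5 of 19. The background cannot be told apart from the count table, the control construct and the amount of MLACC protein. No formal outlier test was run within the groups of 3 libraries. The libraries nearest to another time and the runs with each library left out are given instead.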

How the results depend on the processing

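Of 52 called member values, 20 stayed called under every alternative run for them, and none of 3382 alternative member values turned a called direction. Counts of members called that moved by more than 1.5 times are given here beside the reported count. With only the libraries compared, MLACC against mYFP gave 0 at 2 h (from 4) and 4 at 8 h (from 7), MLACC in ppsdes at 6 h gave 1 (from 2), the interaction gave 0 at 2 h (from 1) and 2 at 6 h (from 1), the mYFP line against its 0 h gave 2 at 6 h (from 1) and 4 at 8 h (from 2), and the ppsdes control gave 1 at 2 h (from 3) and 2 at 6 h (from 1). With the 0 h difference subtracted, wild-type counts were 0 at 2 h, 3 at 6 h (from 5) and 4 at 8 h, those in ppsdes 0 at 6 and 8 h, and those of the interaction 0 at all 4 times. Without the libraries nearest to another time, MLACC in ppsdes at 6 h gave 1, the interaction at 2 h 0, the mYFP line and the ppsdes control at 6 h 2 each, and the wild-type change from 2 to 4 h 4 (from 0). DESeq2 gave 2 in the mYFP line and 3 in the ppsdes control at 6 h. The cause was not tested. Shares over all genes under these settings, and with single libraries left out, are not given here. The counts therefore do not separate a loss of calls over all genes from one particular to the members.

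With each library left out in turn, the counts in the wild type ran from 3 to 4 at 2 h, 5 to 8 at 4 h, 4 to 5 at 6 h and 6 to 7 at 8 h. In ppsdes they were 0 at 2 and 4 h, 0 to 2 at 6 h and 0 to 1 at 8 h. Those of the interaction ran from 0 to 3 at 2 h, 3 to 5 at 4 h, 0 to 1 at 6 h and 2 to 3 at 8 h, and those of the wild-type change from 2 to 4 h from 0 to 3. The mYFP line gave 2, 2 to 4, 1 and 1 to 2, and the ppsdes control 1 to 3, 3, 1 to 2 and 1. The replicate block gave 2 in the ppsdes control at 6 h (MYC4 joined, FDR 0.00741), ended the VSP1 call at 6 h in the wild type (4.19, FDR 0.0104) and changed no other member call. The VSP genes lay at under 1 CPM in most control libraries; the part of depth in their calls was not tested.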
